A study of Drosophila melanogaster with 7 samples.

Results

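The genes described here encode the receptors through which the fly brain reads its neuropeptides: 36 receptor symbols were listed, 32 of them were found on intact lines of the deposited table among 14476 genes, and 28 had a mean of at least 10 normalised counts over the 7 libraries and were tested. The list holds receptors by gene function, and it was drawn up with earlier results of these data known. Brains of Drosophila melanogaster were dissected, and the 3' ends of polyadenylated transcripts were sequenced by CEL-seq2 adapted to bulk RNA. The control strain, Actin-GAL4 UAS-sh8MM, gave 5 libraries, and the knockdown strain, Actin-GAL4 UAS-sh-circMbl, gave 2. The hairpin of the knockdown strain is directed, by its name, at circMbl, the circular RNA that arises from muscleblind. Both strains carry Actin-GAL4, a driver active in nearly all cells, so neither hairpin is restricted to neurons. All titles name day 3, and the labels do not say from what event the day counts, nor the sex or number of the flies.

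Most neuropeptide receptors belong to the G protein-coupled receptors. A peptide is cut from a precursor, released from dense-core vesicles and can act at a distance from its site of release, so the cells that respond are set by where the receptor is made. The activated receptor acts through G protein subunits on cyclic AMP or calcium, and in the insect brain these receptors take part in feeding, sleep and daily rhythms, water balance, courtship and the moulting programme.

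Depth ranged from 3260649 to 5546121 recovered reads per library. The labels leave unsaid whether replicate libraries derive from separate flies. The p-values therefore reflect the spread among these 7 libraries, and part of it may be technical. By their titles the controls share a date code, with lane codes L7 (control replicates 1, 4 and 5) and L5 (control replicates 2 and 3). The knockdown libraries have another date code and lane code L2, so genotype and both codes cannot be told apart. The labels do not say what the codes stand for, and the names date code and lane code are readings of their form. Control replicates 2 and 4, and likewise 3 and 5, share a title number across lane codes, and the labels do not say whether they share RNA. Neuronal markers were present in every library. The 5 of them (elav, nSyb, brp, Syt1 and Syn) summed to between 18605 and 21186 normalised counts in controls and to 25995 and 28677 in the knockdown, and nSyb was the 1 of them that passed the test. Without nSyb the other 4 summed to between 14371 and 15860 in controls and to 16217 and 14802 in the knockdown, so the groups overlapped.

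In the knockdown 4 of the 28 tested receptors fell and none rose (limma, adjusted p under 0.05): Lgr1, Dh44-R1, sNPF-R and CCAP-R, by between 1.52-fold and 2.07-fold. That is 14.3% of the tested receptors, where 6.11% of all 7287 tested genes passed in either direction, 2.63% lower and 3.47% higher. At an unadjusted p under 0.05 the receptors numbered 7 lower and 5 higher, 42.9% of them beside 25.5% of all genes (12.4% lower and 13.1% higher). The median log2 difference was -0.25 over the 28 receptors and -0.02 over all tested genes, with 19 receptors below 0 and 9 above. The minimum on the mean was applied to all 7 libraries together, and rk and hec, whose control means were 9.25 and 7.85, passed it only through their higher knockdown values. Both are among the 5 receptors higher at an unadjusted p under 0.05 (limma). CCKLR-17D1, with a control mean of 14.5 and a knockdown mean of 8.08, passed the minimum only through its higher control values. It is among the 19 receptors below 0.

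**Figure D1:**
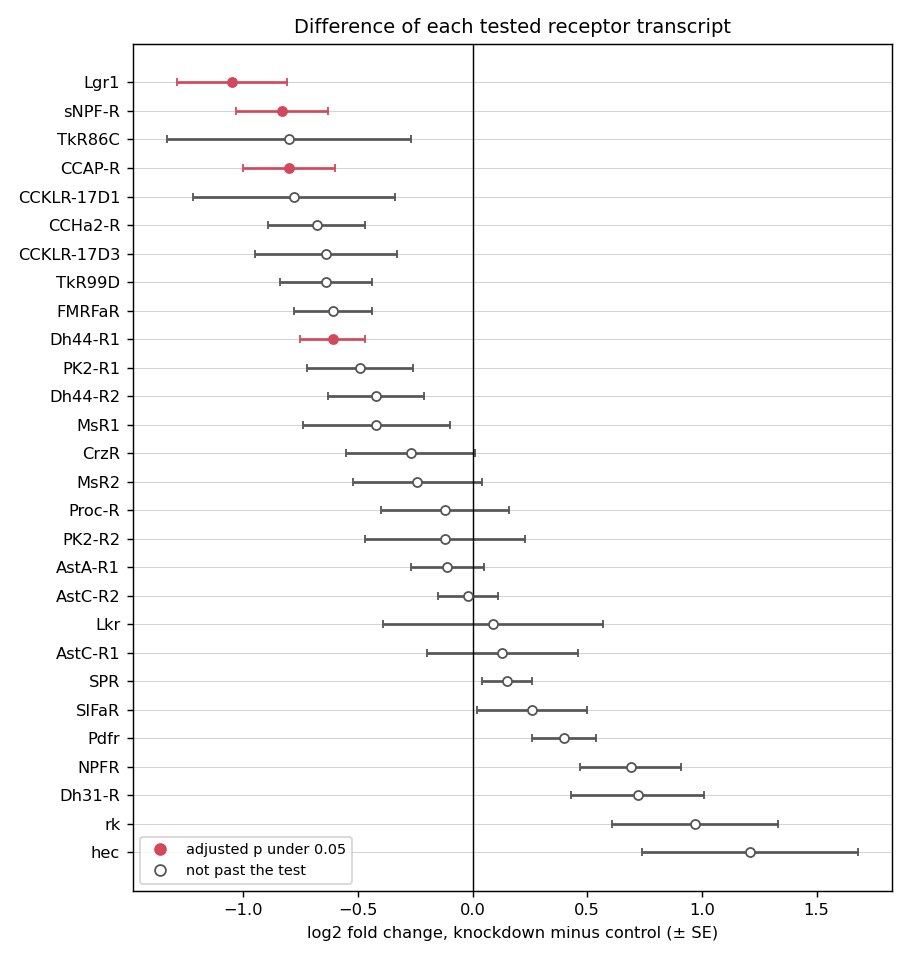
Difference of each of the 28 tested receptors between the 2 knockdown and 5 control libraries, on the log2(normalised count + 1) scale, with bars of 1 standard error from limma. Filled points passed an adjusted p of 0.05; these are Lgr1, sNPF-R, CCAP-R and Dh44-R1, all left of 0.

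Lgr1 (FBgn0016650, 3R:17725777-17733207 in dm6) encodes a leucine-rich repeat receptor for the glycoprotein hormone made of Gpa2 and Gpb5, a relative of vertebrate thyrostimulin. Its transcript held 170.3, 104.3, 110.2, 183.5 and 157.2 normalised counts in control replicates 1 to 5, and 65.0 and 70.6 in the knockdown libraries. Both knockdown libraries lay below every control, and the lowest controls were those of lane code L5. The knockdown mean was 67.8 ± 4.0 (SD, n = 2) against 145 ± 35.9 (SD, n = 5), a log2 difference of -1.05 ± 0.24 (SE; limma, adjusted p = 0.0419). These knockdown values rest on 50 and 58 reads.

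Dh44-R1 (FBgn0033932, 2R:14378097-14385359) is a receptor for diuretic hormone 44, the fly relative of corticotropin-releasing factor, which acts in water balance, nutrient sensing and daily activity. It held 242.7, 201.2, 250.4, 229.4 and 229.7 normalised counts in controls 1 to 5 and 137.8 and 164.4 in the knockdown. The groups did not overlap, and the controls of both lane codes shared one range. Its log2 difference was -0.61 ± 0.14 (SE; limma, adjusted p = 0.043), from means of 231 ± 18.7 (SD, n = 5) and 151 ± 18.9 (SD, n = 2).

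sNPF-R (FBgn0036934, 3L:20058511-20089007) is the receptor of short neuropeptide F, a widely used brain peptide with roles in feeding and growth. Its values were 206.1, 176.5, 167.5, 196.9 and 277.4 in controls 1 to 5, and 118.3 and 107.2 in the knockdown. All controls lay above both knockdown libraries, with control replicate 5 the highest. The log2 difference was -0.83 ± 0.20 (SE; limma, adjusted p = 0.0445), or 1.78-fold.

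CCAP-R (FBgn0039396, 3R:25923499-25956270) binds crustacean cardioactive peptide, which speeds the heart and takes part in the motor programme of moulting. It held 119.0, 83.2, 91.0, 106.3 and 117.7 normalised counts in controls 1 to 5, and 50.7 and 67.0 in the knockdown, from 39 and 55 reads. The groups were separate, and the L5 controls were again the lowest controls. The difference, -0.80 ± 0.20 (SE; limma, adjusted p = 0.0499), lay at the threshold, and CCAP-R no longer passed when the pseudocount was 5 (adjusted p = 0.0505; range over the 18 alternatives, 0.00248 to 0.339). In whole brains, fewer cells of a type and less receptor RNA per cell cannot be told apart.

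The 4 log2 differences stayed below 0 in all 18 alternatives. For these 4 receptors both knockdown libraries lay below every control, so leaving out libraries could not turn the sign. The calls depended on single control libraries of lane code L7: without control replicate 1, 4 or 5 no receptor passed. Of all genes, 202, 177 and 133 did. Without knockdown replicate 1 or 2 no receptor passed either, but 1 gene of all 7287 passed in each case. The lone knockdown library is then assumed to vary like the controls, so those fits say little about single receptors. Leaving out a control of lane code L5 kept calls. Without control replicate 2, 4 receptors passed, with 663 of all genes. Without control replicate 3, Lgr1 and sNPF-R still passed, with 438 of all genes. Fits by limma-voom on the recovered reads gave none of the 4, while 344 of all 7287 genes passed. The limma-voom differences were -1.05 for Lgr1 and -0.61 for Dh44-R1, with adjusted p-values of 0.0746 and 0.0562. Over the 18 alternatives these p-values ran from 0.000187 to 0.265 for Lgr1, from 0.00407 to 0.308 for Dh44-R1 and from 0.00163 to 0.246 for sNPF-R.

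**Figure D2:**
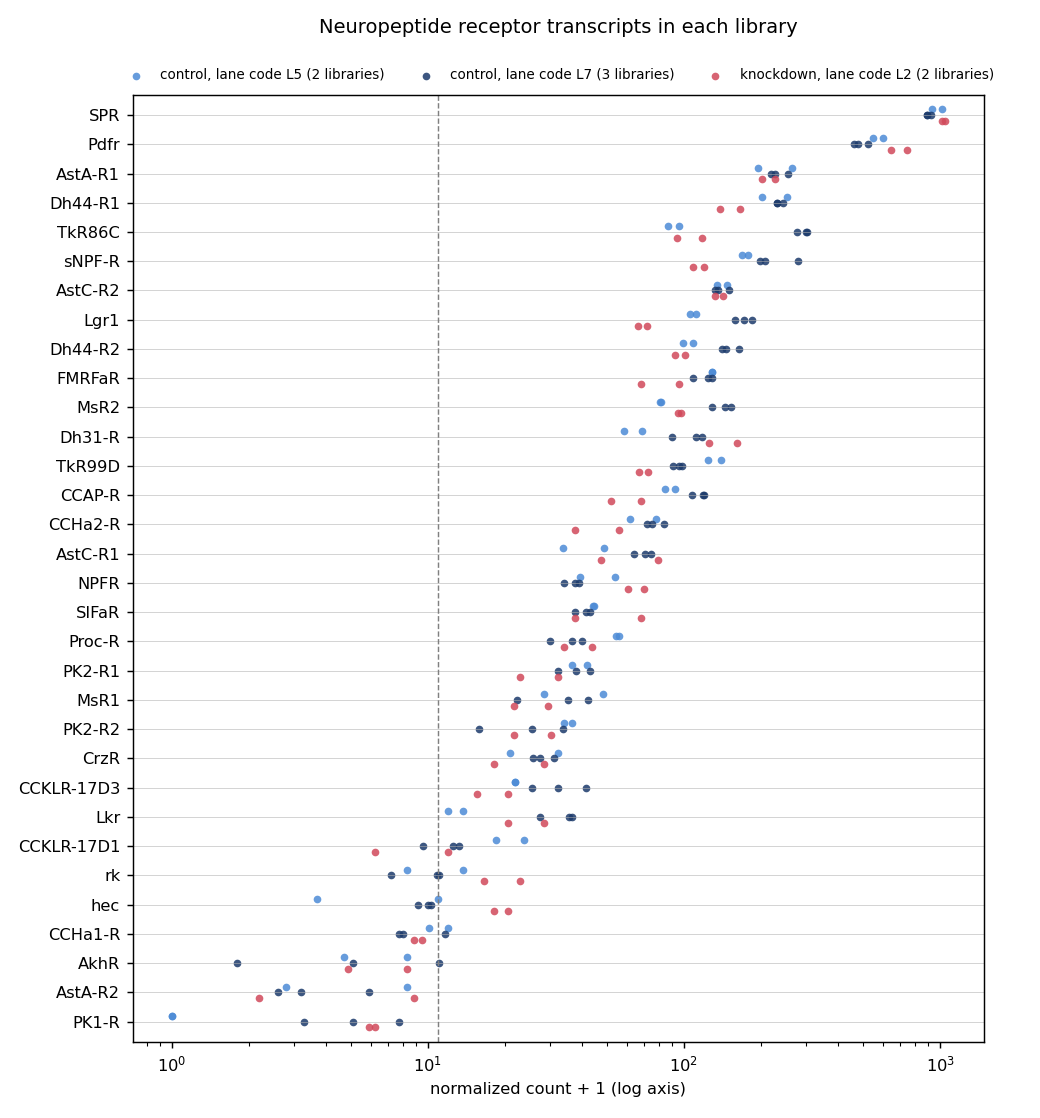
Normalised counts of the receptors in each library, with controls marked by lane code and the 2 knockdown libraries beside them; the horizontal axis shows normalised count + 1 on a log scale and the dashed line marks the minimum mean of 10. The knockdown points of Lgr1, at 65.0 and 70.6, lie below all 5 control points, which lie between 104.3 and 183.5, while those of AstC-R2 lie within the control points.

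Further receptors lay below the controls in both knockdown libraries without passing the adjusted test. Groups did not overlap for 14 of the 28 receptors (50%), against 32.4% of all tested genes. Of these, 8 were lower and 6 higher, and 15.9% of all genes were lower and 16.6% higher without overlap. The 6 higher include rk and hec, which passed the minimum on the mean only through their knockdown values, so the filter favours this outcome for them. FMRFaR, the receptor of FMRFamide peptides, held 107.3, 128.1, 127.5, 123.1 and 127.6 in controls 1 to 5 and 94.9 and 67.0 in the knockdown, a log2 difference of -0.61 ± 0.17 (SE; limma, adjusted p = 0.0696). Controls were close together here apart from replicate 1, which stood nearest the knockdown.

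CCHa2-R, which answers to CCHamide-2, a nutrient-dependent peptide that acts on insulin-producing cells, held 82.4, 60.4, 76.5, 70.5 and 74.1 in controls and 54.6 and 36.5 in the knockdown. Its difference was -0.68 ± 0.21 (SE; limma, adjusted p = 0.081). The higher knockdown library lay just under the lowest control. TkR99D, the main receptor of the tachykinins, held 89.4, 123.5, 138.4, 97.3 and 94.7 in controls and 71.5 and 65.8 in the knockdown (log2 difference -0.64 ± 0.20, SE; limma, adjusted p = 0.0919). Here the L5 controls were the highest, the reverse of Lgr1. CCKLR-17D3, one of the receptors of drosulfakinin, the fly relative of cholecystokinin that promotes satiety, held 40.4, 21.0, 20.9, 24.6 and 31.3 in controls and 19.5 and 14.6 in the knockdown, and had an adjusted p of 0.236 by limma.

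The 6 receptors that lay higher in both knockdown libraries were Pdfr, NPFR, Dh31-R, hec, rk and SPR, and none passed the adjusted test. Pdfr, the receptor through which the peptide PDF aligns the clock neurons, held 521.9, 547.9, 599.1, 475.5 and 461.0 in controls 1 to 5 and 738.2 and 639.5 in the knockdown. The groups were separate, with a log2 difference of 0.40 ± 0.14 (SE; limma, adjusted p = 0.117). NPFR binds neuropeptide F, the fly relative of neuropeptide Y, and held 36.6, 38.4, 52.8, 38.0 and 32.9 in controls and 68.9 and 59.7 in the knockdown (0.69 ± 0.22, SE; limma, adjusted p = 0.0895).

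Dh31-R and hec are related to the vertebrate calcitonin receptor family. Dh31-R, whose peptide DH31 acts in sleep and temperature rhythms, held 116.7, 67.7, 57.4, 110.8 and 88.9 in controls and 159.9 and 124.2 in the knockdown. Its lowest controls were those of L5, and its log2 difference was 0.72 ± 0.29 (SE; limma, adjusted p = 0.153). The transcript of hec, known for a role in male courtship, held 9.3, 2.7, 10, 9.0 and 8.2 in controls and 19.5 and 17.1 in the knockdown. That of rk, the bursicon receptor needed for wing expansion and cuticle tanning, held 6.2, 7.3, 12.7, 10.1 and 9.9 in controls and 15.6 and 21.9 in the knockdown. At these levels counting error alone amounts to 33.7% of the control mean per library for hec and 31.3% for rk, and adjusted p-values were 0.146 and 0.133 by limma.

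SPR, which answers to the male sex peptide and to the myoinhibitory peptides, had 924.0, 932.1, 1012.4, 889.5 and 889.8 normalised counts in controls and 1020.3 and 1043.8 in the knockdown. Both knockdown values were above the highest control by little, and the log2 difference of 0.15 ± 0.11 (SE) did not pass (limma, adjusted p = 0.441). Within 500 bases of their 3' ends, the exons of SPR, rk and Dh44-R2 overlap exons of a gene on the opposite strand (frma, NimC2 and fdl). Whether reads were counted by strand is not given in the sources used here, so their values may hold reads of those neighbours.

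For the remaining tested receptors the groups overlapped, and the width of the interval differs between them. AstC-R2, a receptor of the somatostatin-like allatostatin C, was the most even, at 148.6, 133.5, 145.7, 134.3 and 130.9 in controls and 131.3 and 141.3 in the knockdown, with a log2 difference of -0.02 and a 95% interval of -0.33 to 0.28. Its spread over controls, 5.74% of the mean, was below the 8.03% that counting alone would give. AstA-R1, a receptor of the galanin-like allatostatin A, held 254.3, 193.0, 264.0, 217.1 and 225.5 in controls and 226.2 and 199.8 in the knockdown, an interval of -0.46 to 0.25. These intervals leave out a fall as large as that of Lgr1 (-1.05).

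Further receptors had wider intervals. Lkr, the receptor of leucokinin in water balance and meal size, had an interval of -1.0 to 1.18, AstC-R1 one of -0.63 to 0.88, and PK2-R2, a receptor of the hugin peptide that restrains feeding, one of -0.91 to 0.67. SIFaR, the receptor of SIFamide with roles in courtship and sleep, differed between its own knockdown libraries, at 36.4 and 67.0, while its controls ran from 36.6 to 43.7. CrzR, for the stress-linked peptide corazonin, and Proc-R, for the muscle-acting peptide proctolin, had differences of -0.27 ± 0.28 and -0.12 ± 0.28 (SE). MsR1, the other receptor of myosuppressin, held 21.3 to 47.3 in controls and 20.7 and 28.6 in the knockdown, and PK2-R1, the other receptor of the hugin peptide, 31.1 to 42.0 and 21.9 to 31.2. CCKLR-17D1, the other drosulfakinin receptor, held 8.6 to 22.8 in controls and 5.2 and 11 in the knockdown (-0.78 ± 0.44, SE).

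At the bottom of the range, 4 receptors had means under 10 and were not tested. AkhR, the adipokinetic hormone receptor known mainly from the fat body, held 0.8 to 10.1 in controls and 3.9 and 7.3 in the knockdown. AstA-R2 held 1.6 to 7.3 and 1.2 to 7.8, and CCHa1-R 6.7 to 11 and 7.8 to 8.5. PK1-R, for a pyrokinin of the capability precursor, was at 0 reads in control replicates 2 and 3, which allows up to 2.74 and 2.73 normalised counts (3 reads, counting error only), and at 5.2 and 4.9 in the knockdown. In each of these 4 genes the groups overlapped. ETHR, Lgr3, RYa-R and TrissinR were not analysed here.

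The control libraries differed from each other by lane code, and this bears on several receptors. In a limma fit with the L5 controls, the L7 controls and the knockdown as separate groups, 8 of 28 receptors (28.6%) differed between the L7 and L5 controls, beside 28.2% of all tested genes, so receptors were called here about as often as other genes. Of these, 7 were higher in L7 and 1, TkR99D, was lower.

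TkR86C (FBgn0004841, 3R:10737592-10751228), the receptor of natalisin, a peptide needed for mating, had the largest such difference. It held 301.0, 298.7 and 274.9 normalised counts in the L7 controls, 86.0 and 94.7 in the L5 controls, and 117.0 and 92.6 in the knockdown. The L7 controls were 3.20-fold above the L5 controls (log2 difference 1.68; limma, adjusted p = 1.6e-05), and the knockdown libraries lay with L5. Against the L7 controls the knockdown differed by -1.48 and against the L5 controls by 0.20, so its pooled difference of -0.80 ± 0.53 (SE; limma, adjusted p = 0.381) depends on the lane code of the controls. The spread over the 5 controls was 52.5% of the mean, where counting error alone gives 6.49%.

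**Figure D3:**
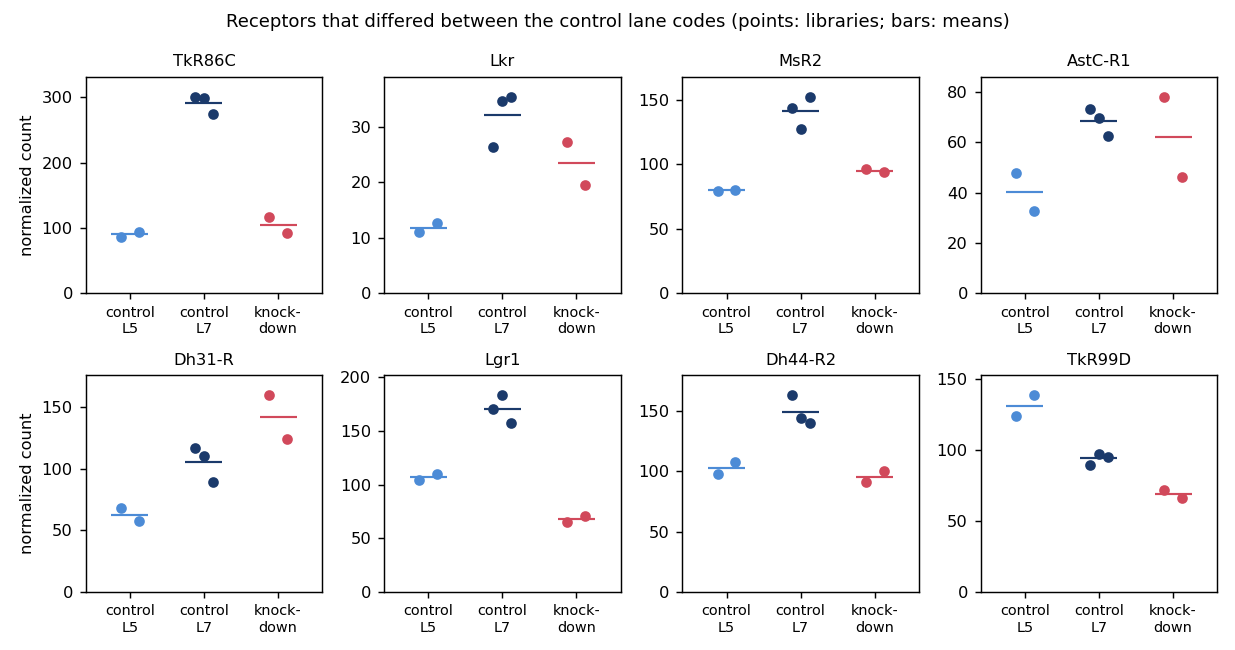
Normalised counts of the 8 receptors whose L7 and L5 controls differed, 1 panel each; points are single libraries, bars are group means and the vertical axes start at 0. For TkR86C the 3 L7 controls, at 274.9 to 301.0, stand above both the 2 L5 controls and the 2 knockdown libraries.

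Lkr, MsR2, AstC-R1, Dh31-R, Lgr1 and Dh44-R2 were also higher in the L7 controls, by log2 differences from 1.36 (Lkr) to 0.53 (Dh44-R2). MsR2, a receptor of myosuppressin, which slows muscle and gut, held 143.9, 127.6 and 152.3 in L7, 79.6 and 80.1 in L5, and 96.2 and 93.8 in the knockdown. The knockdown stood between the lane codes. Dh44-R2, the second receptor of diuretic hormone 44, held 163.3, 144.3 and 139.9 in L7, 97.9 and 107.4 in L5, and 91.0 and 99.9 in the knockdown. Its knockdown libraries overlapped the L5 controls, whereas those of Dh44-R1 lay below all controls. The ratio of Dh44-R1 to Dh44-R2 values was 1.51 and 1.65 in the knockdown and 1.49 to 2.33 in controls, and a difference between the receptors was not tested.

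Set against the lane codes separately, the knockdown differed from the L5 controls in 7 receptors (1 higher and 6 lower) and from the L7 controls in 13 (2 higher and 11 lower). Of all genes, 21.6% differed from L5 (12.1% higher, 9.47% lower) and 33.6% from L7 (15.0% higher, 18.5% lower). Both contrasts use the same knockdown libraries. Lgr1, Dh44-R1, sNPF-R, CCAP-R, FMRFaR and TkR99D were lower against both, that is 6 of 28 (21.4%) beside 5.24% of all genes. Higher against both were 0 receptors, beside 5.83% of all genes (limma, adjusted p under 0.05 in both). At an unadjusted p under 0.05 in both (limma), 2 receptors were higher and 7 lower, and limma-voom called 0 higher and 3 lower (Dh44-R1, FMRFaR and Lgr1). For these counts and the next ones no share of all genes was taken, so they cannot be set against other genes. Without control replicate 1, 4 of the 28 were lower against both (Dh44-R1, FMRFaR, Lgr1 and sNPF-R). Without control replicate 4 or 5 there were 3 (Dh44-R1, Lgr1 and sNPF-R). Omitting control replicate 2 or 3, or a knockdown replicate, leaves 1 library in a group. The members changed further in those fits, and no receptor was lower against both in every fit with a library left out.

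The log2 difference of Lgr1 was -0.65 from the L5 controls and -1.31 from the L7 controls. For sNPF-R these were -0.61 and -0.99, and for CCAP-R -0.57 and -0.96. Dh44-R1 was the most even of these 4 receptors, with -0.57 and -0.63. Dh31-R rose against L5 (1.16; limma, adjusted p = 0.0026) and did not pass against L7 (0.42; adjusted p = 0.0892). Signs against the lane codes were opposite for 6 of 28 receptors, beside 32.7% of all genes.

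**Figure D4:**
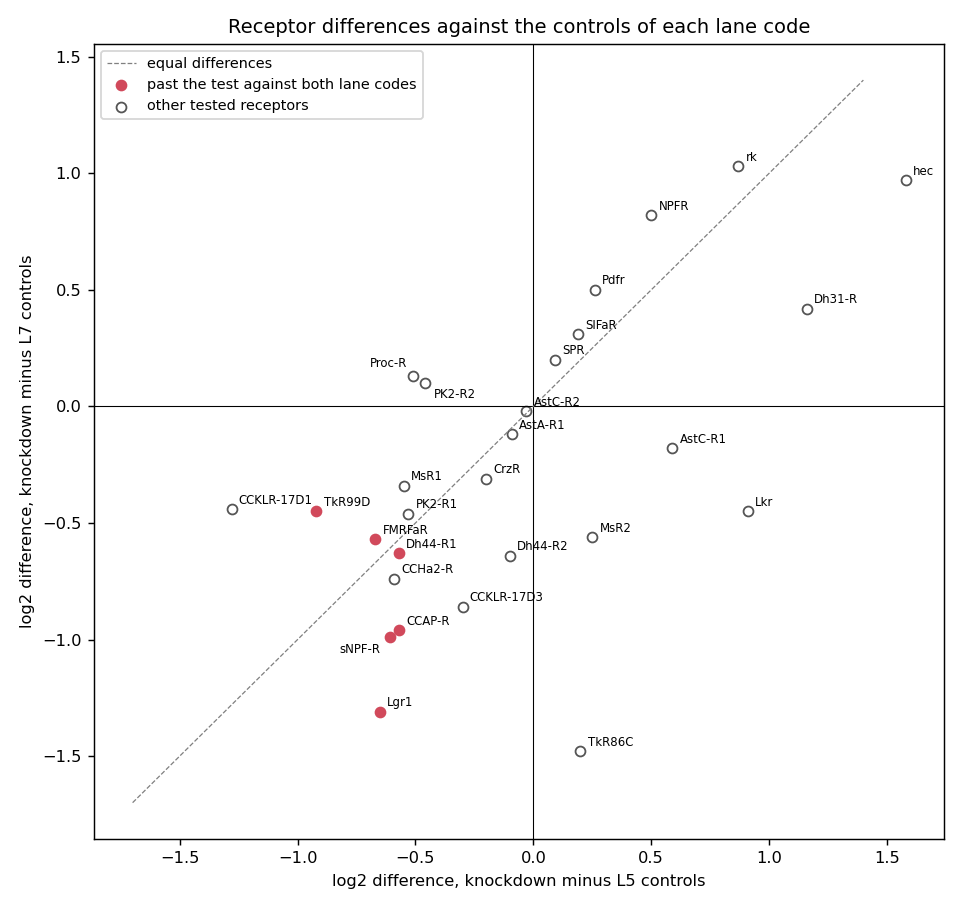
Log2 difference of the knockdown from the L5 controls (horizontal) and from the L7 controls (vertical) for the 28 tested receptors, from the limma fit with 3 groups; the dashed diagonal marks equal differences and filled points passed against both. Lgr1, sNPF-R, CCAP-R and Dh44-R1 lie in the lower left, and TkR86C lies right of 0 at 0.20 and far below it at -1.48.

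The precursor genes of the peptides that these receptors bind were compared in the same fit. Of 31 ligand precursor genes found, 25 were tested, 1 rose and 1 fell, 8.0% of them beside 6.11% of all genes. Gpa2, a subunit of the hormone of Lgr1, rose to 63.7 and 51.2 normalised counts from 27.2, 19.2, 24.6, 25.7 and 28.8 in controls (log2 difference 1.17 ± 0.23, SE; limma, adjusted p = 0.025). Its partner subunit Gpb5 differed by 0.65 ± 0.17 and missed the threshold (adjusted p = 0.0526). For this hormone, then, the receptor transcript was lower and the hormone transcripts higher in both knockdown libraries.

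Proc, the precursor of proctolin, fell (551.1 and 571.2 against 735.6 to 819.0; log2 difference -0.47 ± 0.11, SE; limma, adjusted p = 0.0445), while its receptor Proc-R did not pass. The precursors Dh44 (-0.07 ± 0.19, SE) and sNPF (-0.19 ± 0.14) did not pass, nor did CCAP (0.70 ± 0.39), so of the receptors that fell, Lgr1 was the 1 with a precursor past the test. The precursors of the receptors that were lower without passing also did not pass: CCHa2 differed by 0.55 ± 0.19 (SE), Tk by 0.27 ± 0.22, FMRFa by 0.05 ± 0.19 and Dsk, the drosulfakinin precursor, by 0.36 ± 0.20. For the receptors that were higher without passing, the tested precursors were Pdf (0.01 ± 0.13), NPF (-0.05 ± 0.14), Dh31 (-0.31 ± 0.15) and Mip (-0.36 ± 0.13), and none of them passed. AstA (-0.28 ± 0.12), AstC (0.11 ± 0.13) and natalisin (0.19 ± 0.29) did not pass either. Pburs, for rk, and SP, for SPR, had means under 10 and were not tested. Burs, also for rk, was not analysed, and hec had no listed peptide. Over 25 pairs of a tested receptor and a tested precursor, which hold 24 receptors and 21 precursors, the signs were the same in 9 and opposite in 16. Pairs share receptors, precursors and all libraries, so this count is a description.

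**Figure D5:**
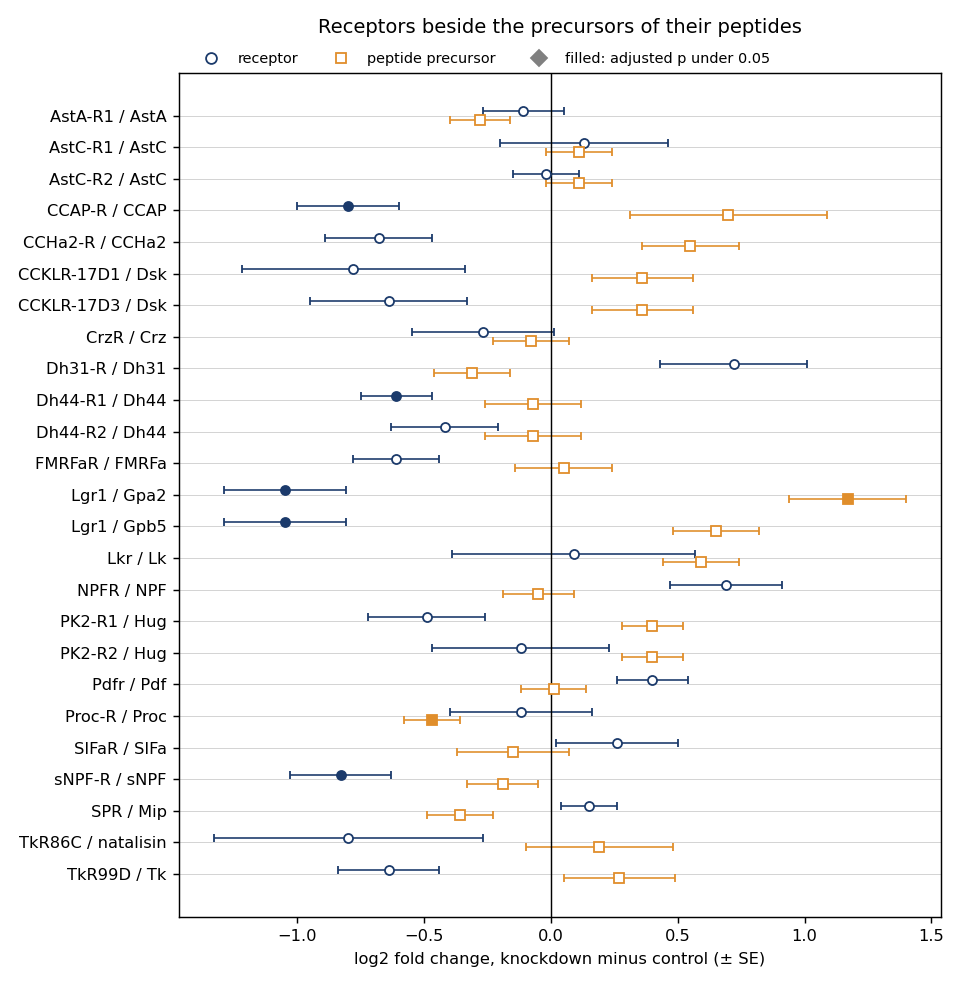
Log2 difference, knockdown minus control, of receptor (circle) and peptide precursor (square) for each of the 25 pairs, with bars of 1 standard error; filled points passed an adjusted p of 0.05. Lgr1 lies at -1.05, left of 0, and its hormone subunits Gpa2 and Gpb5 lie right of 0 at 1.17 and 0.65.

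Downstream of the receptors, 1 of 9 tested G protein subunits passed (11.1%, beside 6.11% of all genes). Gbeta5, a beta subunit that pairs with regulators of G protein signalling, fell, at 370.4 and 414.1 normalised counts against 802.7, 578.1, 609.1, 801.1 and 853.6 in controls (log2 difference -0.88 ± 0.18, SE; limma, adjusted p = 0.0298). The L5 controls were again the lowest controls. Of 17 genes for second messenger enzymes and their targets, 1 passed (5.88%, near the share of all genes). It was CrebB, a transcription factor that responds to cyclic AMP, which rose, at 365.2 and 420.2 against 281.6, 234.2, 280.4, 280.8 and 262.6 (0.55 ± 0.14, SE; limma, adjusted p = 0.0487). Near its 3' end the exons of CrebB overlap those of por on the opposite strand. None of 6 tested genes for receptor desensitisation, of 10 for peptide processing and release, or of 3 further peptide receptors passed by limma, with 0, 1 and 0 at an unadjusted p under 0.05 and none called by limma-voom.

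Of the markers of other cell types, those of the fat body passed in part. The 5 fat body and hemolymph genes found summed to between 14938 and 35906 normalised counts in controls and to 43995 and 50158 in the knockdown. By limma 2 of the 5, Yp3 and fit, were higher (40.0%, beside 6.11% of all genes in either direction). All 5 were higher without overlap, beside 16.6% of all genes. At an unadjusted p under 0.05 (limma) all 5 were higher, beside 13.1% of all genes. None of the 3 glial genes found passed, and they did not share a direction: Gs2, which makes up nearly all of their sum, differed by 0.31 ± 0.17 (SE), alrm by -0.25 ± 0.15 and moody by -0.61 ± 0.25, each without overlap of the groups. No muscle, photoreceptor or hemocyte gene passed, and their sums overlapped between groups. The 32 receptors together summed to between 3405 and 4003 in controls and to 3618 and 3414 in the knockdown, so the groups overlapped. The part of these markers in the receptor differences was not tested.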

How the data were processed

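Brain libraries, 2 knockdown and 5 control, were prepared by CEL-seq2, per the labels' protocols. The submitters' processing notes name STAR and dm6. How reads were counted (tool, annotation, strand, molecular identifiers) and scaled is not given in the sources used here. Per gene, the authors deposited normalised counts, a signal. In intact lines 100% of values were whole multiples of 1 step per library (tolerance 0.001 read), which gave the read totals. Floors cover counting error only. The intervals of the differences rest on the standard errors of the limma fit, which reflect the spread among libraries. A stretch of 2139 damaged lines, 1 line with a damaged name and 402 columns of no sample were not used.

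Values were taken as log2(value + 1), which understates changes of low genes. Genes with a mean of at least 10 (7287) were fitted with limma 3.58.1 in R 4.3.3 (mean-variance trend, no covariates), with Benjamini-Hochberg adjustment over all of them and a threshold of 0.05. Because the controls split by lane code, a second fit had 3 groups. The fit without lane codes was run on simulated counts that hold no split of the controls, so that run does not cover such a split. Positions are from the BDGP6 annotation, the same assembly as dm6. Values in every library are given for receptors past the test or at an unadjusted p under 0.05, the 10 with the highest mean, and those whose groups did not overlap; other receptors were named to account for every one, and MsR2, SIFaR and the receptors that differ by lane code were singled out after their values were seen. Of other lists, genes past the test and the precursors of those receptors are named. Members and gene lists were chosen with earlier results of these data known.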

Additional observations from a re-analysis of the deposited data

Results flagged for a closer look

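For 42 genes, 28 of them receptors, the 5 control values were checked for a library far from the others. Dixon's ratio lay above 0.71, which chance exceeds in about 1 of 20 groups, in 3 genes, all receptors. FMRFaR held 107.3 normalised counts in control replicate 1, and the other controls ran from 123.1 to 128.1. NPFR held 52.8 in control replicate 3, where the others ran from 32.9 to 38.4. The transcript of hec held 2.7 in control replicate 2, where the others ran from 8.2 to 10. The spread over controls was 7.19% of the mean for FMRFaR, 19.2% for NPFR and 37.3% for hec. Counting error alone gives 8.56%, 15.0% and 33.7%. The cause was not tested.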

How the results depend on the processing

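All alternatives except limma-voom with 3 groups, which was chosen after seeing the data, were planned; the planned count-model alternatives were not run. The count of receptors that passed, 4, became 3 with a pseudocount of 5, 2 with no filter on low values, 0 with limma-voom, 12 against the L7 controls (2 higher, NPFR and Pdfr, and 10 lower) and 8 with same-titled controls averaged (2 higher, the same receptors, and 6 lower). Against the L5 controls it was 4 with other members: Dh31-R higher, Lgr1, sNPF-R and TkR99D lower, while Dh44-R1 (adjusted p = 0.0516) and CCAP-R (0.0986) were lost. It ran from 0 to 4 when libraries were left out. All genes past the test, 445 of 7287, became 452 with a pseudocount of 5, 499 of 12051 with no filter and 344 with limma-voom. They became 1082 against L5, 2409 against L7 and 1301 with averaged controls, and 133 to 663 with a control library left out. Ligand precursors, 2 in number, became 11 (L7), 6 (averaged), 1 (limma-voom, quantile normalisation) and 0 to 3 with a library left out. Second messenger genes, 1, became 5 (L5, L7, averaged), 2 (quantile), 0 (limma-voom) and 0 to 1. G protein subunits, 1, became 2 (L5) and 0 to 1. Further peptide receptors went from 0 to 1 (L5, L7), and processing genes from 0 to 2 (L5) and 5 (L7). For the 3-group fits with a library left out no share of all genes was taken. Their ranges, given next, therefore cannot be set against other genes, and some of these fits leave 1 library in a group. With a library left out, receptors called ran from 5 to 9 between control lane codes (8 in all), 3 to 7 against L5 (7) and 8 to 12 against L7 (13).

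Same-numbered libraries correlated at 0.102 and 0.14 by source-name number and between -0.029 and 0.14 by title number. Those by source-name number were the highest of each knockdown library, whose other values reached 0.053 and 0.017. The 2 knockdown libraries mirror each other around their own mean, so this check cannot decide whether the numbers pair the samples. With a replicate block by source-name number or by title number, 0 receptors, precursors, G protein subunits and second messenger genes passed, with 120 and 51 of all genes.

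Of 42 genes followed, 29 kept their sign in all 18 alternatives. With a library left out, log2 differences crossed 0, from -0.24 to 0.50 for AstC-R1, -0.08 to 0.03 for AstC-R2, -0.59 to 0.06 for CrzR, -0.14 to 0.33 for Lkr, -0.36 to 0.12 for PK2-R2, -0.31 to 0.06 for Proc-R, -0.17 to 0.69 for SIFaR, -0.27 to 0.13 for Dh44, -0.03 to 0.13 for FMRFa and -0.09 to 0.12 for Pdf. Reversed values against L5 were 0.25 for MsR2, 0.20 for TkR86C, 0.18 for Dh44, -0.15 for FMRFa and -0.11 for Pdf. Against L7 they were -0.18 for AstC-R1, -0.45 for Lkr, 0.10 for PK2-R2, 0.13 for Proc-R and 0.03 for NPF. Lkr was -0.08 with averaged controls and AstC-R2 0.00 with upper-quartile rescaling. With the replicate block by title number they were 0.00 for AstC-R2, 0.01 for Dh44, -0.03 for FMRFa and -0.02 for Pdf. The cause was not tested. Counting error limits receptors near 10 normalised counts.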
